A study of Xenopus tropicalis with 24 samples.

Results

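The genes described here encode the parts of the Nodal pathway that sit at the cell surface or reach it from outside. They are the type I receptor gene acvr1b, the type II receptor genes acvr2a and acvr2b, the co-receptor gene tdgf1, and the ligand genes gdf1 and gdf3. These 6 genes were chosen by name, not by a measured value. They are 6 of the 5944 gene labels in the transcript table and 6 of the 8164 genes named in the chromatin peak lists, and all 6 were found in both.

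In background terms, Nodal ligands bind a type II receptor (acvr2a or acvr2b) together with a type I receptor (acvr1b, also called ALK4). Nodal and gdf1 also need a co-receptor of the EGF-CFC family, of which tdgf1 (Cripto) is a member. The active type I receptor phosphorylates Smad2 and Smad3, which enter the nucleus and bind DNA with partners such as FoxH1. In Xenopus, gdf1 is Vg1, whose mRNA is stored in the vegetal part of the egg, and gdf3 is Derrière, a related ligand that acts in mesoderm formation. The pathway induces mesoderm and endoderm in the blastula and gastrula.

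All samples are wild-type whole Xenopus tropicalis embryos. ChIP-seq was run on pools of 250 embryos. H3K4me3 (a promoter mark), H3K4me1 and H3K27ac (marks of enhancers and active elements), H3K27me3 (a Polycomb mark) and Smad2/3 were each profiled at stage 8 (blastula), stage 9 (late blastula) and stage 10.5 (early gastrula). H3K27ac and H3K4me1 were also profiled at stage 9 in embryos kept in SB431542, which blocks the kinase of the Nodal and Activin type I receptors, acvr1b among them, from the 4-cell stage on. 3' RNA-seq, which counts tags near transcript 3' ends, was made from 400 ng of mRNA in 4 groups, namely stage 8, inhibited stage 9, untreated stage 9 and stage 10.5. Each of the 24 groups holds 1 listed library. No spread between embryo pools is therefore known, no difference below was tested against one, and the 95% intervals cover counting error only. In bulk embryos, fewer cells with a transcript and less of it per cell cannot be told apart.

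Several facts of the series touch every comparison. The 4 RNA libraries held 4656275 to 8030203 tags in regions that name a gene, and levels are given as tags per 1000000 such tags (CPM). A gene was compared where the higher library had at least 10 CPM, and called where log2(CPM + 1) differed by at least 2-fold. Of the 7 zygotic marker genes chosen to check the stages, 6 matched a label that names 1 gene. They stood at 58.8 to 233 CPM at stage 10.5 and 0 to 2.55 CPM at stage 9. They thus pass the CPM minimum through stage 10.5 alone. Of 8 maternal markers, gdf1 among them, 6 matched such a label, all with tags at stage 8. At stage 10.5 against stage 8 none of the 6 was 2-fold lower and vegt was higher, with a median log2 ratio of -0.03. The histone libraries of untreated embryos went through BWA and carried multiplexing adapters, while inhibited and Smad2/3 libraries went through Bowtie and did not, so treatment and preparation cannot be told apart. The names of peaks in the stage 9 H3K27ac list begin with a stage 8 prefix, and its stage is taken from its sample label. The title of the untreated stage 9 H3K4me1 sample marks it as repeated, which no other sample title does. Scaling matters too. The median log2 ratio of all compared genes was -0.45 for stage 9 over stage 8, against 0.08 with TMM and 0.09 with median of ratios.

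The 6 genes followed different courses. From stage 8 to stage 9 the level was at least 2-fold lower for acvr2a and acvr2b (2 of 4 genes compared, where 28.8% of 4953 genes fell) and at least 2-fold higher for tdgf1 (1 of 4, where 7.29% rose). From stage 9 to stage 10.5 it was higher for gdf1 and gdf3 (2 of 4, background 29.0% of 5045) and lower for tdgf1 (1 of 4, background 17.2%). From stage 8 to stage 10.5 it was higher for gdf3 (1 of 5, background 14.7% of 5231) and lower for acvr2a and acvr2b (2 of 5, background 24.6%). Under inhibition, against untreated stage 9, it was higher for acvr2b and gdf1 (2 of 5, background 20.5% of 4819) and lower for none (background 16.7%). Against stage 8 the inhibited library was higher for tdgf1 (1 of 5, background 11.6% of 5052) and lower for acvr2b (1 of 5, background 28.9%). Several of these calls passed the minimum of 10 CPM through the higher library alone, so they are a description. They are acvr2a lower at stage 9 and at stage 10.5 than at stage 8, and gdf1 and gdf3 higher at stage 10.5 than at stage 9. The same holds for gdf3 higher at stage 10.5 than at stage 8 and for gdf1 higher under inhibition. These comparisons share libraries, stage 9 over stage 8 and inhibited over untreated above all, and a low value in the untreated stage 9 library enters both. Among genes called in stage 9 over stage 8, 79.8% were lower, against 45.7% with TMM and 44.4% with median of ratios. In inhibited stage 9 over stage 8 the lower share was 71.3%, against 48.1% and 51.3%. In inhibited over untreated stage 9 it was 44.9%, against 52.0% and 56.8%, and in stage 10.5 over stage 9 it was 37.2%, against 50.1% and 51.8%. In stage 10.5 over stage 8 it was 62.6%, against 48.9% and 49.2%.

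**Figure D1:**
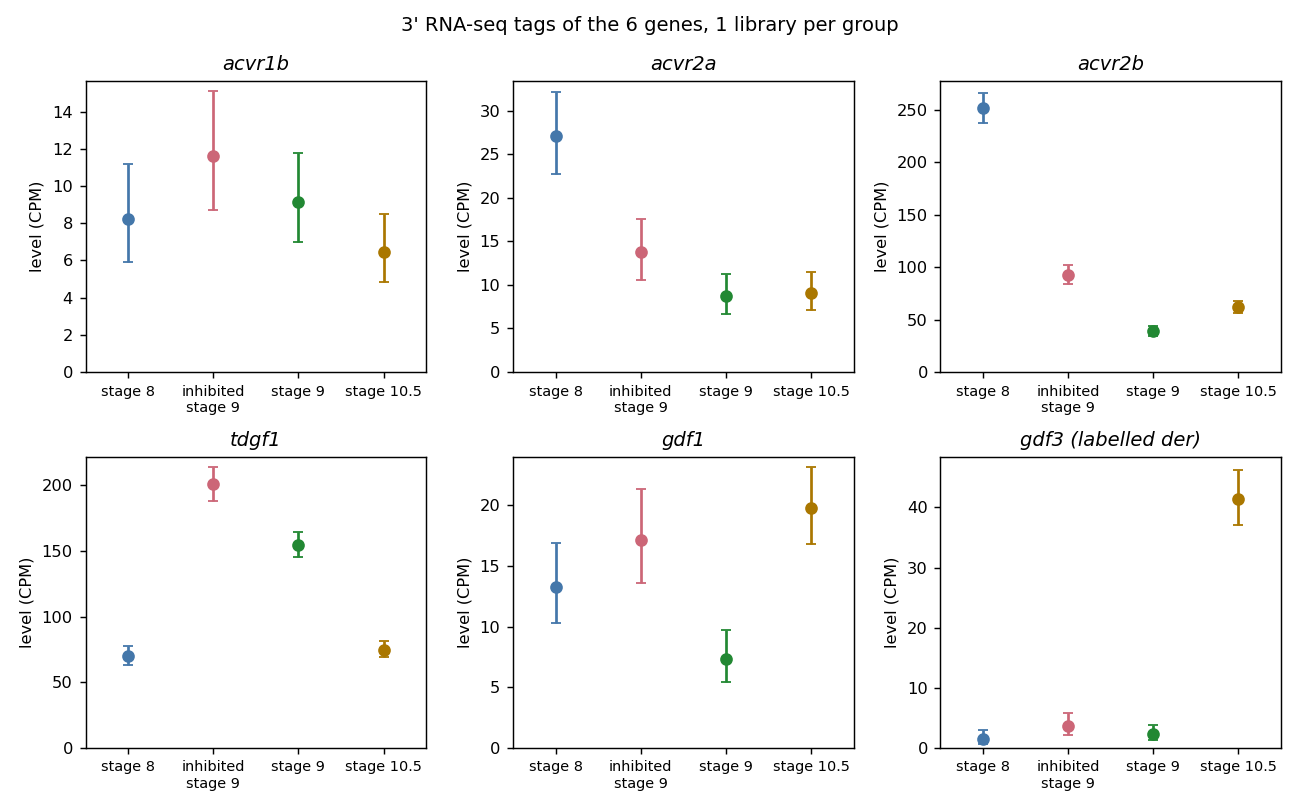
Level in CPM (vertical axes, from 0) for each of the 6 genes in the 4 RNA libraries, 1 library per point, with exact 95% counting intervals. acvr2a and acvr2b stand highest at stage 8, tdgf1 at stage 9 with and without inhibitor, and gdf3 at stage 10.5, where its 333 tags compare with 7 to 17 in the other libraries.

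The type I receptor gene acvr1b (ALK4) kept a low and even level by its summed regions. It had 41 tags at stage 8, 54 in inhibited stage 9, 61 in untreated stage 9 and 52 at stage 10.5, or 8.24, 11.6, 9.16 and 6.48 CPM. The counting intervals of the 4 libraries overlap, except those of inhibited stage 9 and stage 10.5. The inhibited library stood at 1.27 times the untreated one (0.861 to 1.86), an interval that holds both no change and a rise of more than 1.5-fold. Single regions differed. At scaffold 130, 688388 to 688619, stage 10.5 stood at 0.553 times stage 9 (0.336 to 0.897), with 30 against 45 tags. The region at 676232 to 676316 had 0 tags at stage 8, 7 in inhibited stage 9, 0 in untreated stage 9 and 13 at stage 10.5. The drug acts on the protein this gene encodes, so its mRNA is no check of the treatment. By likeness over the 4 libraries (root mean square difference of centred log2 values), clock (0.028) and lsm2 (0.065) were the closest of 4905 genes.

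The type II receptor gene acvr2a was highest at stage 8. Its 135 tags there (27.2 CPM) compare with 64 in inhibited stage 9 (13.7 CPM), 58 in untreated stage 9 (8.71 CPM) and 73 at stage 10.5 (9.09 CPM). Stage 9 was 3.12-fold lower than stage 8 (2.28 to 4.32), with a log2 ratio of -1.54, or -1.06 with TMM. The inhibited library was 1.58 times the untreated one (1.09 to 2.29), short of the 2-fold call, and by the region with the most tags alone the log2 ratio was -0.24 instead of 0.60. The courses closest to it were those of gatad2a (0.064) and dnajb1 (0.071).

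The other type II receptor gene, acvr2b, had the largest fall of the group. It had 1251 tags at stage 8, 431 in inhibited stage 9, 261 in untreated stage 9 and 495 at stage 10.5, which is 252, 92.6, 39.2 and 61.6 CPM. The stage 8 library is the highest and the untreated stage 9 library the lowest, with no overlap of counting intervals between any 2 of the 4. Stage 9 was 6.42-fold lower than stage 8 (5.61 to 7.36), with a log2 ratio of -2.65, or -2.15 with TMM, and stage 10.5 was 4.08-fold lower than stage 8 (3.67 to 4.54). The inhibited level was 2.36 times the untreated one (2.02 to 2.77) and 2.72-fold below stage 8 (2.43 to 3.04). recql5 (0.062) and rufy3 (0.093) had the most similar courses.

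The regions summed for acvr2b did not move together. The labelled region farthest along the gene, 87.8 kb from the transcription start site (TSS) at scaffold 28, 956251 to 956481, had 215 tags at stage 8, 204 in inhibited stage 9, 145 in untreated stage 9 and 156 at stage 10.5. Its inhibited level was 2.01 times the untreated one (1.62 to 2.51). The region 85.5 kb from the TSS, at 958577 to 958742, ran the other way, with 38 tags at stage 8, 13 in inhibited stage 9, 50 in untreated stage 9 and 16 at stage 10.5. Its inhibited level was lower than the untreated one, at a ratio of 0.372 (0.185 to 0.695). A neighbouring pair near 77.5 kb, at 966607 to 966773 in the orientation of the gene and at 966403 to 966504 in the opposite one, had 345 and 514 tags at stage 8, 89 and 105 in inhibited stage 9, 17 and 24 in untreated stage 9, and 107 and 166 at stage 10.5. The inhibited level was thus 7.49 times the untreated one in the region of gene orientation (4.42 to 13.4) and 6.26 times in the opposite one (3.99 to 10.2).

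Orientation splits the acvr2b sum further. Over 20611 regions of 4806 genes, 89.6% of tags lay in regions whose coordinate order matches the strand of the gene. By regions the share was 69.6%. This order was read as orientation. Regions in the orientation of acvr2b summed to 671, 317, 227 and 310 tags in stage 8, inhibited stage 9, untreated stage 9 and stage 10.5, and opposite ones to 580, 114, 34 and 185. Without the opposite regions the log2 ratio of stage 9 over stage 8 was -1.95 in place of -2.65, and that of inhibited over untreated was 0.98 in place of 1.22, just under the 2-fold call. At the TSS a region in the orientation of the gene had 68 tags at stage 8 and 10 to 26 in the other libraries, and an opposite one had 66 and 9 to 19. What the opposite tags are was not tested.

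**Figure D2:**
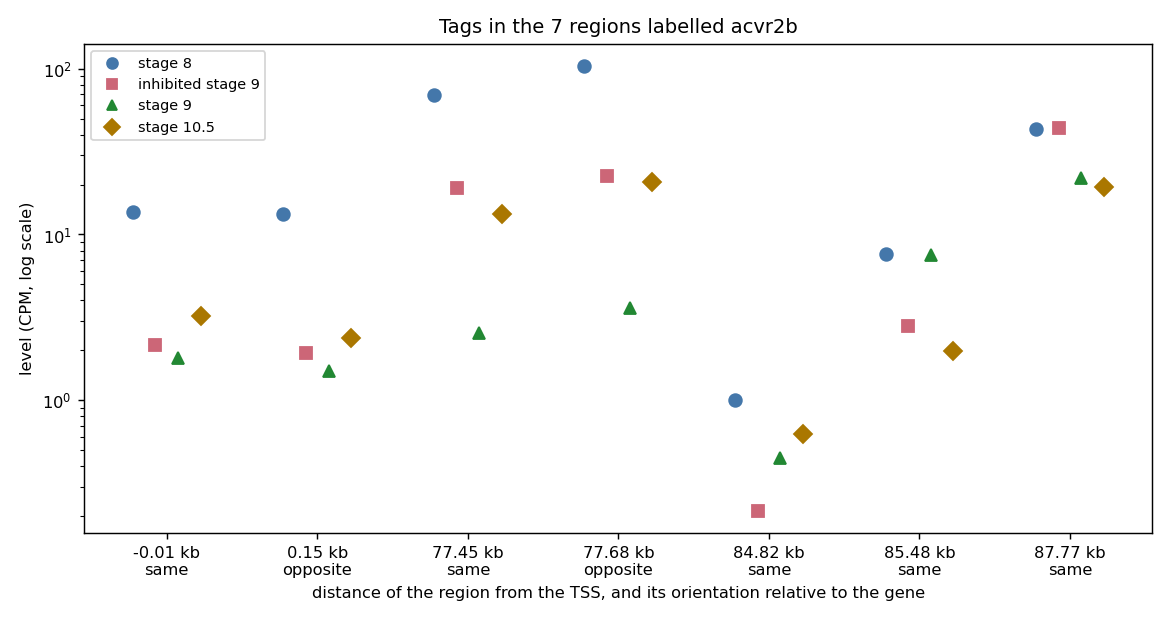
Level in CPM (vertical axis, log scale) in each of the 7 regions labelled acvr2b, ordered by distance from the TSS and marked with their orientation relative to the gene, 1 library per symbol. The regions near 77.5 kb hold the highest stage 8 values and the widest gap between libraries, and the region at 87.8 kb the narrowest gap.

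The co-receptor gene tdgf1 was higher at stage 9 than at stage 8, where acvr2a and acvr2b were lower. It had 349 tags at stage 8 (70.2 CPM), 936 in inhibited stage 9 (201 CPM), 1028 in untreated stage 9 (154 CPM) and 601 at stage 10.5 (74.8 CPM). By summed regions both stage 9 libraries are high and the stages on either side low. Stage 9 stood at 2.20 times stage 8 (1.95 to 2.49), and stage 10.5 was lower than stage 9 by 2.06-fold (1.86 to 2.29). The summed inhibited level was 1.3 times the untreated one (1.19 to 1.42) and 2.87 times that of stage 8 (2.53 to 3.25). Single regions of the gene did not all move this way. The closest courses were those of MGC76132 (0.082) and ndufb7 (0.096).

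The main tdgf1 region, 12.9 kb into the gene at scaffold 647, 302064 to 302387, had 199, 593, 654 and 462 tags in stage 8, inhibited stage 9, untreated stage 9 and stage 10.5. An overlapping region of opposite orientation had 10, 60, 155 and 16 tags. A region in gene orientation at 303098 to 303267 had 37, 67, 110 and 33 tags. Another in gene orientation, at 303503 to 303760, ran otherwise, with 103, 216, 109 and 90 tags. Its inhibited level was 2.83 times the untreated one (2.24 to 3.60). Its untreated stage 9 level stood at 0.790 times stage 8 (0.598 to 1.045). With regions in gene orientation alone, stage 9 over stage 8 had a log2 ratio of 0.93 and stage 10.5 over stage 9 one of -0.84, each under the 2-fold call. tdgf1 is 1 of 3 neighbouring Cripto-type genes in the RefSeq table (assembly UCB_Xtro_10.0), tdgf1.1, tdgf1.2 and tdgf1.3, and no source used here says how tags of near-identical copies were placed. The tags of the gene that the table labels cfc1, another EGF-CFC co-receptor, ran otherwise, with 4018 at stage 8, 830 in inhibited stage 9, 2385 in untreated stage 9 and 3216 at stage 10.5.

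Of the ligand genes, gdf1 (Vg1) had few tags for a transcript known as an abundant maternal store. Its only region had 66 tags at stage 8, 80 in inhibited stage 9, 49 in untreated stage 9 and 159 at stage 10.5, or 13.3, 17.2, 7.36 and 19.8 CPM. The untreated stage 9 library is the low one, and the stage 8 and inhibited intervals overlap. The inhibited level was 2.34 times the untreated one (1.62 to 3.4), and stage 10.5 stood at 2.69 times stage 9 (1.94 to 3.79) but at 1.49 times stage 8 (1.11 to 2.02). With median of ratios the inhibited over untreated log2 ratio was 0.95 in place of 1.12, below the call. mst4 (0.028) and eif4g2 (0.040) had the closest courses.

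The tags of gdf3 (Derrière) stand under the label der, its alias in the peak lists and in RefSeq, in a region 2.32 kb from the gdf3 TSS in the same orientation. The label maternal does not describe them. There were 7 tags at stage 8 (1.41 CPM), 17 in inhibited stage 9 (3.65 CPM), 15 in untreated stage 9 (2.25 CPM) and 333 at stage 10.5 (41.5 CPM). Only the gastrula library is high, at 18.4 times stage 9 (11.0 to 33.3) and 29.5 times stage 8 (14.1 to 73.9). At stage 9 both libraries lie under 10 CPM, so the effect of the inhibitor could not be compared at this depth. The closest courses, cfp (0.168) and ptk2b (0.170), were less alike than those of the other genes.

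Marks at the promoters divided the genes at stage 8. The TSS of acvr1b and of acvr2b lay under H3K4me3 (2 of 6 genes, where 6.72% of 8145 start sites did), H3K4me1 (2 of 6, background 34.4%) and H3K27ac. Both H3K4me3 peaks were weak calls, ranked 1821 (acvr1b) and 1449 (acvr2b) of 2010 by the authors' peak score. Their scores of 5 and 7 lay under the list median of 10. The H3K4me1 scores of 8 (acvr1b) and 7 (acvr2b) lay under that list's median of 9. The H3K4me3 and H3K4me1 peaks of acvr2a stood just upstream of its TSS. At tdgf1 and gdf3 the TSS lay under H3K27ac, with neither methyl mark called within 50 kb. H3K27ac thus covered 4 of 6 start sites at stage 8 (background 26.0%), and the TSS of gdf1 was covered in none of the 17 lists.

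At stage 9 H3K4me3 again covered acvr1b and acvr2b (2 of 6, background 40.4%). H3K27ac covered 3 start sites under inhibition (background 38.1%), those of acvr1b, tdgf1 and gdf3, and 4 in untreated embryos (background 34.4%), acvr2b added. H3K4me1 covered 5 under inhibition (background 57.7%) and the same 5 in untreated embryos (background 67.4%), all but gdf1. At stage 10.5 H3K4me3 (background 68.4%) and H3K27ac (background 55.7%) each covered those 5, and H3K4me1 covered 4 (background 68.6%), since its acvr2b peak lay upstream of the TSS.

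Counted by deposited gene name within 50 kb, H3K4me3 peaks were found at 3 of 6 genes at stage 8 (13.8% of 8164 genes had one), at 3 at stage 9 (52.2%) and at 5 at stage 10.5 (81.4%). The 3 early ones were the receptor genes, and tdgf1 and gdf3 joined them at stage 10.5 with 2 peaks each. H3K27ac was found at 5 genes at stage 8 (42.1%), 4 in inhibited stage 9 (65.8%), 5 in untreated stage 9 (53.9%) and 5 at stage 10.5 (78.4%). At stage 8, gdf1 counts through a peak of 383 bp at the very end of its scaffold (scaffold 646, 1 to 383). Its TSS lies at base 25004 and its gene body runs towards base 1, so the scaffold end cuts its window short in every list. H3K4me1 was found at 3 genes at stage 8 (44.3%), 6 in inhibited stage 9 (74.6%), 5 in untreated stage 9 (86.9%) and 5 at stage 10.5 (91.8%). H3K27me3 was called at none, as for nearly all genes (0.159%, 0.147% and 0.563% had a peak at stages 8, 9 and 10.5). Of the stage 8 peaks of the 6 genes, 3 of 3 H3K4me3 peaks (63.9% of all in the list), 6 of 8 H3K27ac peaks (74.5%) and 3 of 3 H3K4me1 peaks (94.4%) overlapped a stage 9 peak of the same mark. Of the stage 10.5 peaks, 4 of 10 for H3K4me3 (43.5%), 8 of 17 for H3K27ac (35.8%) and 13 of 26 for H3K4me1 (55.7%) did. These shares are near those of the whole lists or rest on 3 peaks.

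The length under H3K27ac differed between the loci. The whole lists covered 21.6 Mb at stage 8, 39.9 Mb in inhibited stage 9, 34.6 Mb in untreated stage 9 and 97.1 Mb at stage 10.5, so lengths set across lists carry that growth. Around tdgf1, peaks covered 14.3 kb of the 100-kb window at stage 8, 13.3 kb in inhibited stage 9, 30.3 kb in untreated stage 9 and 59.0 kb at stage 10.5, counting only the part of each peak inside the window. Around gdf3 it was 10.2, 7.29, 10.7 and 12.7 kb in the same order. Around acvr2a it was 0, 0, 1.75 and 18.5 kb, around acvr2b 1.06, 0, 1.55 and 10.6 kb, around acvr1b 1.36, 3.86, 5.05 and 9.49 kb, and around gdf1 0.383, 5.44, 1.90 and 2.98 kb. The gdf1 window is cut short by the end of its scaffold. The receptor genes thus held little acetylated length before the gastrula stage, while tdgf1 and gdf3 already held over 10 kb at stage 8. The Cripto-type neighbours tdgf1.2 and tdgf1.3 are named in no peak list. Lengths, peaks and Smad2/3 sites given for tdgf1 may therefore include some that lie at those copies.

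The H3K27ac peak over the tdgf1 TSS had these widths in the 4 lists. At stage 8 it ran for 7262 bp and ranked 449 of 8078 by width. The inhibited stage 9 list had a peak of 8599 bp there, ranked 431 of 16105, and another of 2574 bp beyond it. The untreated stage 9 list had 1 peak of 21086 bp over the whole stretch (scaffold 647, 298131 to 319216), which ranked 32 of 11314 by width. At stage 10.5 a peak of 28508 bp covered the TSS, ranked 249 of 23275, and another of 27205 bp, ranked 283, lay 37.4 kb away on the side of the gene body. At the gdf3 TSS the H3K27ac peak was 9450 bp wide at stage 8 (255236 to 264685), 3217 bp in inhibited stage 9 (260984 to 264200), 10679 bp in untreated stage 9 (255854 to 266532) and 8844 bp at stage 10.5. The gdf3 peak was narrow in the inhibited list alone. The median width of all H3K27ac peaks was 1788 bp in the inhibited and 2071 bp in the untreated list of stage 9.

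Smad2/3 was called near 2 of the 6 genes at stage 10.5 (background 5.32%), at tdgf1 and gdf3 with 2 sites each, and within 50 kb of none at stage 8 (background 1.62%) or stage 9 (background 3.52%). None of the 3 receptor genes had a site in that window. At tdgf1 a site at 298927 to 299393 lay 16.0 kb from the TSS, beyond the last labelled tag region, and ranked 161 of 1024 by the authors' peak score, while one at 315153 to 315454 lay upstream, at -162 bp from the TSS, and ranked 821. At gdf3 the sites at 259575 to 260022 and 261628 to 261886 lay upstream, at -2108 and -149 bp from the TSS, and ranked 519 and 814. These are positions on xenTro2 scaffolds 647 and 940, without sequence, since no genome of that build was used here.

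The marks under those 4 sites were set beside those under all 1024 Smad2/3 sites of stage 10.5. In inhibited stage 9 embryos H3K4me1 was called at all 4 (58.3% of all sites) and H3K27ac at 3 (59.3%), the exception being the gdf3 site at -2108 bp. In untreated embryos all 4 lay under H3K27ac at stage 8 (48.5%), stage 9 (66.8%) and stage 10.5 (92.8%), and under H3K4me1 at stage 9 (73.9%) and stage 10.5 (95.7%). None lay under H3K4me1 (7.32%) or H3K4me3 (3.32%) at stage 8. Both TSS-near sites, 2 of 4, lay under H3K4me3 at stage 10.5 (29.6%). With 4 sites at 2 loci these counts are a description, and most of them follow the majority of all sites. The gdf3 site at -2108 bp falls in the stretch by which the gdf3 H3K27ac peak of untreated embryos exceeds the inhibited one. None of the 4 overlapped a Smad2/3 peak of stage 8 or 9. Per the file headers the stage 9 list came from pooled reads and a stricter call, and the part of the threshold in its gaps was not tested.

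**Figure D3:**
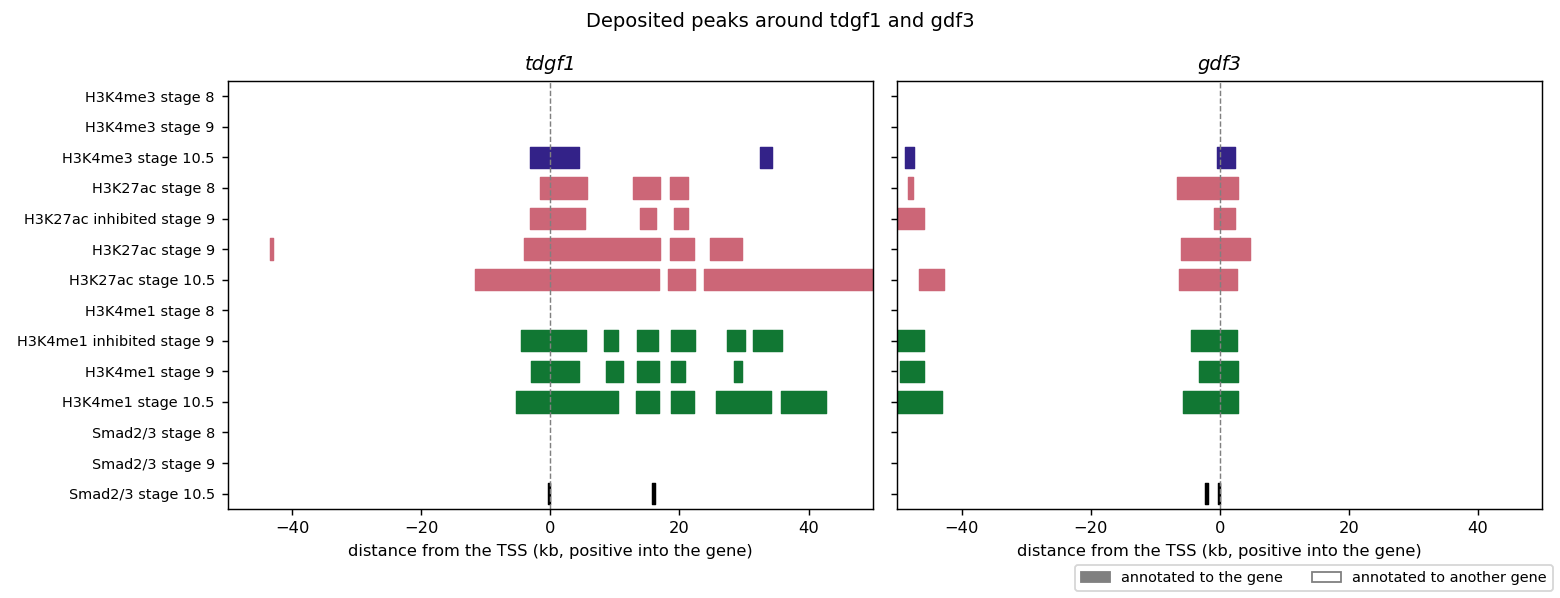
Deposited peaks of H3K4me3, H3K27ac, H3K4me1 and Smad2/3 around the TSS of tdgf1 (left) and gdf3 (right), by distance from the TSS in kb, with inhibited above untreated stage 9; filled bars are peaks annotated to the gene. H3K27ac covers both start sites from stage 8 on, the methyl marks appear later, and the Smad2/3 sites of stage 10.5 fall inside those marked stretches.

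The stage 9 peaks of both arms were read against each other. For H3K27ac, 7 of 10 inhibited peaks of the 6 genes overlapped an untreated peak (40.0% of all 16105 did), and 5 of 9 untreated peaks overlapped an inhibited one (52.9% of all 11314). For H3K4me1 it was 11 of 13 inhibited peaks (81.6% of 17162) and 10 of 17 untreated ones (53.6% of 25975). The shares of the untreated peaks lie close to those of the whole lists.

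Which peaks were called again differed by gene. The promoter H3K27ac peaks of acvr2a (143321 to 145072 on scaffold 232) and acvr2b (1043456 to 1045002 on scaffold 28) had no counterpart at those places under inhibition, while both acvr1b peaks and the gdf3 peak had one, and tdgf1 kept 2 of 4. The inhibited H3K4me1 list still held a promoter peak at every receptor gene. It lacked 4 of 5 untreated peaks at acvr1b, 2 of 3 at acvr2a and 1 of 2 at acvr2b, whereas all 5 at tdgf1 and both at gdf3 were called again. By its summed labelled regions acvr2b stood at 2.36 times the untreated level under inhibition, though those regions did not all move the same way. Whether the transcripts and these peak calls are linked was not tested.

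Base composition was set beside these promoter calls. The lost acvr2a and acvr2b H3K27ac peaks had GC contents of 51.3% and 51.6%. The acvr2b peak covers its TSS, and the acvr2a peak stands just upstream of its own and so lies outside the class that follows. Among untreated H3K27ac peaks over any TSS, 54.5% of the 872 with GC of 50% or above were called again (51.1 to 57.8%), against 72.5% of the 1770 below it (70.3 to 74.6%). For H3K4me1 the shares were 74.0% of 688 and 87.9% of 4527. The median GC content of all peaks was 43.2% in the untreated and 42.3% in the inhibited H3K27ac list. For H3K4me1 it went the other way, at 41.2% untreated and 43.1% inhibited. The H3K4me1 peak over the acvr2b TSS in the inhibited list had a GC content of 55.4%. The part of base composition, aligner and adapters in the loss at acvr2a and acvr2b was not tested.

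**Figure D4:**
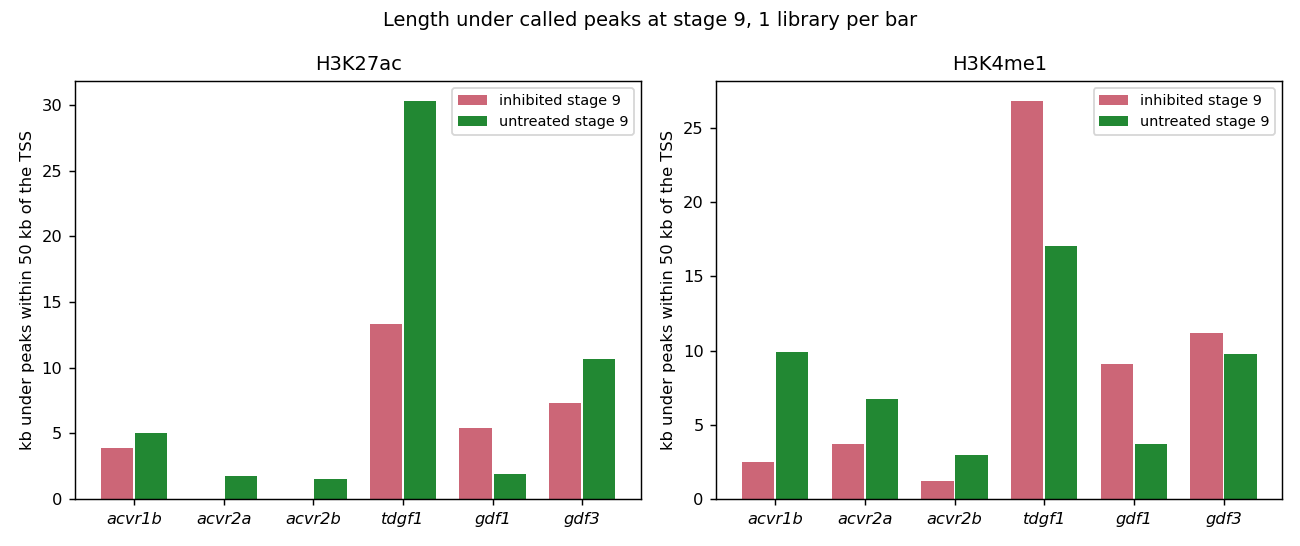
Length in kb under called H3K27ac (left) and H3K4me1 (right) peaks within 50 kb of the TSS of each gene at stage 9, inhibited beside untreated, 1 library per bar, whatever gene the peak is annotated to. For H3K27ac the inhibited bar is the shorter at 5 of 6 genes, with gdf1 the exception, and for H3K4me1 it is the longer at tdgf1, gdf1 and gdf3. The share over all genes was not computed, so these counts have no background. The whole H3K27ac lists covered 39.9 Mb inhibited and 34.6 Mb untreated, and the H3K4me1 lists 49.5 and 59 Mb.

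At gdf1 a count by gene name misleads. H3K27ac had 2 named peaks in inhibited and 0 in untreated stage 9 embryos, and H3K4me1 also 2 and 0. The inhibited H3K27ac peak at -14.3 kb from the TSS (scaffold 646, 37394 to 41209) overlaps an untreated peak whose nearest gene is cope, a coatomer subunit gene, at 39364 to 40535, and the H3K4me1 peaks there do so too. The wider inhibited peaks have their centre nearer to gdf1, so the annotation changes and the element is called in both arms. The other pair of inhibited peaks, H3K27ac at 2835 to 4458 and H3K4me1 at 2540 to 7407, has no untreated counterpart. By position, H3K27ac covered 5.44 kb around gdf1 in inhibited and 1.90 kb in untreated embryos. No H3K4me3 peak was annotated to gdf1 at any stage. In the RefSeq table gdf3 and gdf1 stand next to each other with 0 protein-coding genes between them, while xenTro2 has them on scaffolds 940 and 646, so peaks between the genes may carry either scaffold.

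**Figure D5:**
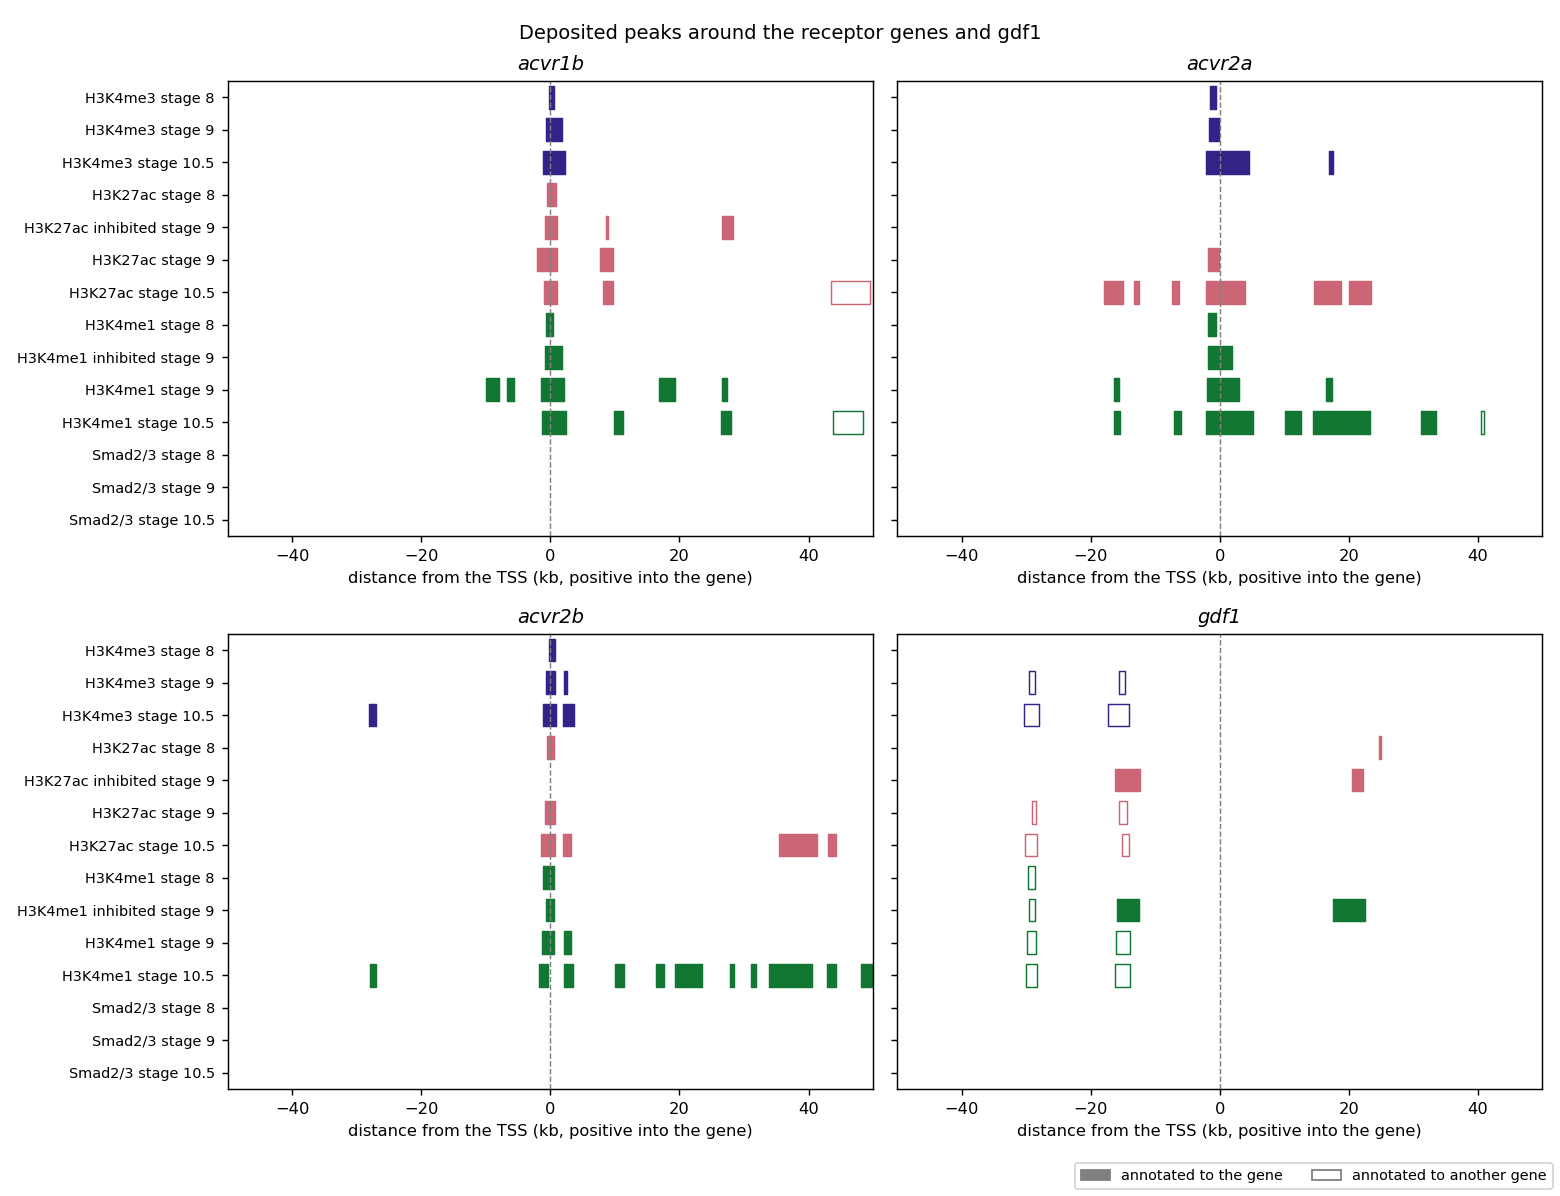
Deposited peaks around the TSS of acvr1b, acvr2a, acvr2b and gdf1, by distance from the TSS in kb, with inhibited above untreated stage 9; filled bars are annotated to the gene and open bars to another gene. From stage 8 on, H3K4me3 and H3K4me1 peaks lie over the TSS of the 3 receptor genes or just upstream of it. They lie upstream at acvr2a at stage 8, and for H3K4me3 also at stage 9. At acvr2b the H3K4me1 peak of stage 10.5 lies upstream. No Smad2/3 peak is drawn in any panel, and at gdf1 the element near -14 kb changes its annotation under inhibition.

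The 50-kb limit left out 26 of the 52 peaks annotated to acvr2b and 17 of the 39 annotated to acvr2a, and none of the other genes. Among them is an H3K27ac peak in intron 1 of acvr2b, 61.9 kb from the TSS, which was called in inhibited stage 9 (981836 to 982614) and in untreated stage 9 (982079 to 982512), so the absence of H3K27ac at acvr2b under inhibition holds for the window only. An inhibited H3K4me1 peak at -48.6 kb from the gdf3 TSS lies just inside it, and an acvr2b H3K4me1 peak of stage 10.5 centred 50425 bp from the TSS just outside. Smad2/3 sites annotated to acvr2b lay 93.7 kb from the TSS on the side of the gene body at stage 8 and at -173 kb at stage 9, and neither overlapped a peak of any histone list.

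The rest of the pathway was read from lists of its genes, and only some had tags. The lists count symbols, some of which are aliases of one gene, such as ectodermin and trim33. Of 18 other receptor and co-receptor symbols 3 matched such a label. Their median log2 ratio of inhibited over untreated stage 9 was -0.23, against 0.21 over all genes, with cfc1 at least 2-fold lower and the type I receptor genes acvr1 and tgfbr1 within 2-fold. Of 16 ligand symbols 2 matched a label. bmp4, a ventral ligand gene, had 2 tags at stage 8, 99 in inhibited stage 9, 29 in untreated stage 9 and 1120 at stage 10.5, and bmp2 had 889, 614, 584 and 622.

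Of 21 symbols for antagonists, inhibitors and convertases 6 matched a label, and 4 could be compared under inhibition, with a median log2 ratio of 0.12. None was higher (background 20.5%) and 1 was lower (background 16.7%), pcsk5, a proprotein convertase gene with 36 tags in inhibited and 123 in untreated stage 9. At stage 10.5 against stage 9, 3 of 5 compared genes were higher (background 29.0%) and 1 was lower (background 17.2%), again pcsk5. The higher ones were the secreted Nodal antagonist gene cer1, with 1637 tags at stage 10.5 and 0 at stage 9, and trim33 and ppm1a, which act on Smads. Stage 10.5 stood at only 1.64 times stage 8 for ppm1a, within 2-fold, and at 2.13 times for trim33. Of 12 symbols for Smads and nuclear partners 5 matched a label, and 4 were compared under inhibition. Of these 2 were higher, smad1 and foxh1 (background 20.5%), and 1 was lower (background 16.7%). The lower gene was smad2, with 4781 tags at stage 8, 2247 in inhibited stage 9, 7849 in untreated stage 9 and 2034 at stage 10.5. The log2 ratios of smad1 (1.13) and foxh1 (1.02) lay near the 2-fold limit, and their values under other scalings are not given here. The list's median was 0.66.

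Early Nodal targets could not serve as a check of the inhibitor. Of 12 such symbols 10 matched a label, but none of these reached 10 CPM in either stage 9 library. At stage 10.5, where 8 of them passed that minimum, they stood at 44.8 to 233 CPM, against 0 to 3.75 CPM at stage 9. They passed only through stage 10.5, so this is a description. Smad2/3 sites of stage 10.5 within 50 kb, found at tdgf1 and gdf3, were also looked for at the list genes. The share over all 8164 genes named in the peak lists was 5.32%. Many list symbols are named in no peak list and could be given no site, so counts out of all symbols understate the shares. Sites were found at 1 of the 18 other receptor symbols, acvr1 with 2 sites, and at 2 of the 16 ligand symbols, nodal1 with 3 and bmp4 with 1. They were found at 4 of the 21 antagonist symbols, lefty, cer1 and bambi with 2 each and fst with 1. Of the 12 Smad and partner symbols smad3 had 1 and tcf7l1 had 3. Among the early targets, eomes and t had 4 sites each, gata6 had 3, gsc, chrd, gata4 and lhx1 had 2 each and sox17b.1 had 1. At stage 9, tmeff1 and lhx1 had 1 site each.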

How the data were processed

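The deposited files were used as they are: 17 peak lists and 1 table of RNA regions. Input chromatin (3 libraries) was not analysed here. The submitters' processing notes name BWA and Bowtie for alignment, MACS2 for peak calling and HOMER for annotation, without versions, and for the RNA tags the aligner was not given in the sources used here. Raw tag counts per region are deposited, called on all tracks together per the file headers (bandwidth 50, strand ignored). The columns of the RNA table include 4 per-sample ones that match none of the listed samples, and these were left unread. Whether they hold further libraries of the same groups was not checked. The peak score is the authors', on no stated scale, and ranks peaks within a list only. GC content is deposited as a fraction and printed as a percent. Distances to the TSS and gene names are deposited annotation on xenTro2, and each start site was solved from peak centres and these distances.

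Tags of regions labelled with a gene were summed and scaled to named tags, with a pseudocount of 1 CPM. Ratios carry exact conditional binomial 95% intervals. Peaks overlapped where they shared 1 bp. TMM factors came from edgeR 4.0.16 in R 4.3.3, the rest from Python 3.11.15 with scipy 1.17.1, and the scripts were tested on simulated data. Genes named are the 6 members, the 2 genes closest in course to each, and list genes that changed 2-fold or had a Smad2/3 site, apart from 1 list gene that is not reported here. The members and lists were chosen with earlier results of these data known.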

Additional observations from a re-analysis of the deposited data

Results flagged for a closer look

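Tags in regions that name no gene lie just beyond the last labelled region of 5 of the 6 genes, in the same orientation and within 3 kb. They enter no comparison above and stand out because the signal lies outside the gene labels. Over the 4 libraries there were 96 such tags at acvr1b, 661 at acvr2a, 2049 at acvr2b, 33 at tdgf1 and 65 at gdf3. At acvr2b the 9 regions summed to 635 tags at stage 8, 305 in inhibited stage 9, 380 in untreated stage 9 and 729 at stage 10.5, so that the inhibited and untreated libraries differed less there than in the labelled regions. At acvr2a the 5 regions summed to 233, 100, 115 and 213 tags in the same order. The tags at tdgf1 were all in the stage 10.5 library, as were 64 of those at gdf3. Whether these regions belong to the transcripts of the genes was not tested.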

How the results depend on the processing

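No paired analysis was run because each group holds 1 listed library, and for the same reason no replicate was left out. The 4 unmatched per-sample columns of the RNA table were left unread, so whether they could serve as replicates is not known. Depth limits acvr1b and gdf3 most, at 41 to 61 tags and 7 to 17 tags before stage 10.5. The alternatives with regions in gene orientation, with unlabelled downstream regions and with peaks by position were chosen after seeing the data. Of the alternative values for counts, 211 stayed near the reported one and 30 moved, and of those for single genes 226 stayed, 44 moved and 0 reversed a called direction. Some of the values that stayed equal the reported one by construction. The cause of the moves was not tested.

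By scaling, genes at least 2-fold higher and lower at stage 9 than at stage 8 numbered 361 and 1428, against 850 and 716 with TMM and 878 and 702 with median of ratios. For inhibited stage 9 over stage 8 they numbered 586 and 1459, against 996 and 923 with TMM, and median of ratios gave 927 higher. These calls held under all 9 alternatives each: acvr2a and acvr2b lower and gdf3 higher at stage 10.5 than at stage 8, acvr2a and acvr2b lower at stage 9 than at stage 8, gdf1 and gdf3 higher at stage 10.5 than at stage 9, and tdgf1 higher in inhibited stage 9 than at stage 8. The acvr2b log2 ratio of stage 9 over stage 8 ranged from -4.50 to -1.95.

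The tdgf1 calls of stage 9 against stages 8 and 10.5, and those of inhibited over untreated stage 9, did not hold under every alternative. With regions in gene orientation 0 genes were higher at stage 9 than at stage 8. At stage 10.5 against stage 9, 0 were lower with a pseudocount of 5, with the region of most tags, in gene orientation and with downstream regions. For inhibited over untreated stage 9, 1 gene was higher in place of 2 with median of ratios, a pseudocount of 5, gene orientation and downstream regions. For inhibited stage 9 over stage 8, 2 were lower with the region of most tags and with downstream regions, and 0 in gene orientation.

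By peak choice, a limit of 10 kb left 22 of 44 H3K27ac and 25 of 59 H3K4me1 peaks. A limit of 100 kb put 1 gene near a stage 8 Smad2/3 peak. With scores at or above the list median, H3K4me3 kept 10 of 17 peaks, H3K27ac 29, H3K4me1 34 and Smad2/3 1 of 4. There was then 1 gene, acvr2a, with an H3K4me3 and an H3K4me1 peak at stage 8, neither of them over its TSS. The peaks over the acvr1b and acvr2b start sites dropped out. There was 1 gene with a Smad2/3 peak at stage 10.5. Of untreated H3K4me1 peaks of the 6 genes at that score, 100% (8 of 8) were called again, against 58.8% (10 of 17) without the score limit. The share for all peaks of the list at that score was not computed, so the 8 of 8 has no background.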
